A study of Mus musculus with 145 samples.

Results

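Reprogramming of mouse spermatogonial stem cells (SSCs) into germline-derived pluripotent stem cells (gPSCs) was followed here through 10 genes that write, copy, erase or protect DNA methylation: *Dnmt1*, *Uhrf1*, *Dnmt3a*, *Dnmt3b*, *Dnmt3l*, *Tet1*, *Tet2*, *Tet3*, *Zfp57* and *Trim28*. They were chosen by symbol for their known roles, with no threshold on a measured value but with earlier results of these data known. Counts of members set against all genes are therefore not independent of these data. The choice was made out of 24615 genes in the STRT-seq table and 17668 genes in the scTrio-seq2 RNA tables, and each of the 10 was found in both. The SSCs came from neonatal mice of the cross C57BL/6[female] X DBA[male] carrying an EGFP transgene under the *Oct4* promoter, and were grown on feeder cells in SSC medium. Single cells were picked by mouth pipette from colonies of SSC-like or pluripotent morphology, so shares of cell types reflect the picking. Modified STRT-seq, which counts unique molecular identifiers (UMIs) per gene and cell, was used on 46 libraries of untreated cultures from day 0 to day 27, along with gPSCs at passage p1 and at passage p15 and mouse embryonic stem cells (mES, the line F1 4-5). These lines were grown in N2B27 medium with 2iL and gave 1 library each. The RNA part of scTrio-seq2 covered 8 samples under 5C, a mixture of SGC707, vitamin C, EGCG, Daphnetin and TUDCA, and 5 samples under its solvent DMSO. The 5C cells were taken on days 12, 14 and 16 and the DMSO cells on days 20 and 24, with 8 cells of day 0 in DMSO replicate 5. No day was shared, so the effects of treatment and of day cannot be told apart.

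DNA methylation is copied after each round of replication by DNMT1, which UHRF1 brings to hemimethylated CpG sites, and it is placed on new sites by DNMT3A and DNMT3B. DNMT3L has no catalytic activity and acts as their cofactor, with a known role in male germ cells. The TET proteins oxidise 5-methylcytosine, the first step of its active removal. ZFP57 is a zinc finger protein that recognises methylated imprint control regions and recruits TRIM28 (KAP1), a scaffold for repressive chromatin, through which imprints are kept while the rest of the genome loses methylation.

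Each STRT-seq library held 10833720 to 34609591 UMIs and each scTrio-seq2 sample 3888311 to 10723044 UMIs. The 4464 and 1089 cells carry 4464 and 1089 distinct names, made of the library and 1 of 96 or 94 well numbers that libraries reuse by design. In the scTrio-seq2 samples, cells with at least 400 CPM (UMIs of a gene per 1000000 UMIs of the cell) of *Dazl*, a germ cell RNA-binding protein, were called Dazl-high and the others Dazl-low. Only 13 of 724 cells under 5C and 3 of 365 under DMSO lay between 300 and 500 CPM. UMIs were summed per sample and state, and sums of at least 5 cells were kept, which left 8 samples of 5C and 5 of DMSO for Dazl-high cells and 6 and 2 for Dazl-low cells. Levels of these sums are given as CPM after TMM scaling. The split fixes *Dazl*, so a germ cell list was summed over its other 6 genes. In Dazl-high cells it came to 976 to 1470 CPM under 5C and 1614 to 2398 CPM under DMSO, without overlap, and in Dazl-low cells to 140 to 240 CPM and 75.7 to 78.7 CPM. Within the Dazl-high cells of DMSO it was at 1722 and 1614 CPM in replicates 1 and 2 and at 2233 to 2398 CPM in the other 3. A pluripotency list of 8 genes was at 1177 and 826 CPM in the Dazl-high sums of those 2 replicates and at 85 to 222 CPM in the other 3, and under 5C at 1040 CPM in replicate 1 and 147 to 467 CPM in the other 7. The part of these differences in the results on Dazl-high cells was not tested. In Dazl-low cells the pluripotency list summed to 2875 to 3821 CPM in the Dazl-low cells of 5C and to 5235 to 5369 CPM in those of DMSO. *Dazl* itself was at 98.6 to 228 CPM in the former and 25.4 to 36 CPM in the latter. The part of this difference in the results on Dazl-low cells was not tested. Lists of fibroblast, meiotic and neural markers reached at most 62.4, 662 and 75.3 CPM in any sum, and the fibroblast gene *Lum* was at 0 in all Dazl-low sums. Library names share a stem between DMSO replicates 1 and 2, between DMSO replicates 4 and 5, and between 5C replicates 2, 4 and 7. What the stem stands for is not stated, and the fits count these samples as separate. Nothing in the labels says whether the samples came from separate cultures. P-values therefore measure only the spread between these samples, part of which may be spread between splits of 1 source.

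The promoters of the members differed in CpG content. Those of the maintenance pair are shown because their levels are compared throughout, and those of *Dnmt3l* and *Zfp57* because these genes were related in some, but not all, groups of single pluripotent cells. All sequences are RefSeq windows of 300 bases on GRCm38.p6, from 250 bases before to 50 bases after an annotated start, written 5′ to 3′ on the gene's strand. For *Dnmt1* (gene at chromosome 9, 20907209 to 20959888, minus strand) the window is chr9:20952574-20952873, and for *Uhrf1* (chromosome 17, 56303321 to 56323486, plus strand) it is chr17:56304063-56304362. Capitals mark matches to the E2F-type words TTTGGCGC and TTTCGCGC on either strand.
Dnmt1: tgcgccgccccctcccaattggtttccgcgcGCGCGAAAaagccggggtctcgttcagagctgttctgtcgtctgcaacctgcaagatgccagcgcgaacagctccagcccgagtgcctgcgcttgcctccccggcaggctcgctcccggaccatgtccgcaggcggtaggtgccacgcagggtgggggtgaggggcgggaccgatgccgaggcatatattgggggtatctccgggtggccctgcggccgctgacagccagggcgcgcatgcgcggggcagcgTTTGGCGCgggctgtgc
Uhrf1: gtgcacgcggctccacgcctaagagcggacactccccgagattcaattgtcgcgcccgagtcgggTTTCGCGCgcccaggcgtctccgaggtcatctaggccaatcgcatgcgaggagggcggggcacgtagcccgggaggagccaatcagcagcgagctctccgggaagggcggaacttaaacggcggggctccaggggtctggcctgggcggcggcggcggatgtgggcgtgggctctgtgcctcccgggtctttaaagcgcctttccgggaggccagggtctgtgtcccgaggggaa
These windows are the most CG-rich of 3 and of 2 annotated for the genes, and each held 33 CG dinucleotides, against a median of 7 over all 32851 mouse windows. TTTGGCGC occurred in 0.514% of all windows and TTTCGCGC in 0.323%. Among the 19 windows of the members TTTGGCGC was found only for *Dnmt1* and TTTCGCGC only for *Dnmt1* and *Uhrf1*. For *Dnmt3l* (chromosome 10, 78041947 to 78063622, plus strand) and *Zfp57* (chromosome 17, 37001163 to 37010635, plus strand) the window with the most CG of the 3 of each gene is given, at chr10:78042037-78042336 and chr17:37002275-37002574, with every CG in capitals.
Dnmt3l: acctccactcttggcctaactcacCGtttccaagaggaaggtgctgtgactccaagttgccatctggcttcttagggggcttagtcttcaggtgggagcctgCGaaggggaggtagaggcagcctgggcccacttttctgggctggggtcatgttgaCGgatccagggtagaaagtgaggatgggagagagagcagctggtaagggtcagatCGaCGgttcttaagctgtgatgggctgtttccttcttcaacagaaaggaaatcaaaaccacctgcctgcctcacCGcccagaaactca
Zfp57: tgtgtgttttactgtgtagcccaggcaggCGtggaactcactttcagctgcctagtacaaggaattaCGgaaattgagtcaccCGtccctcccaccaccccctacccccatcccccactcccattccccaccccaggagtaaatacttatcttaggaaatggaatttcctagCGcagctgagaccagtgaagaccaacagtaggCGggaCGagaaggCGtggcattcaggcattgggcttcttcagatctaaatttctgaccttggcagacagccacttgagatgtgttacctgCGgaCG
These held 6 and 9 CG, close to the median window. The single window of *Tet2* held 57 CG, those of *Dnmt3a* 18 to 47, that of *Dnmt3b* 30, that of *Trim28* 23, that of *Tet3* 22 and that of *Tet1* 17. Of the other words searched on both strands, TTCCCGCC (2.19% of all windows) was found for *Trim28* and *Uhrf1*, TGCCGC (11.6%) for *Dnmt3a*, *Tet3* and *Trim28*, CCAAT (37.4%) for *Dnmt1*, *Uhrf1*, *Tet3* and *Zfp57*, and the octamer ATTTGCAT (1.74%) for no member. A match is a run of letters and was not tested as a binding site.

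In Dazl-high cells, whose other germ cell markers were lower under 5C, the maintenance pair and *Trim28* were higher under 5C than under DMSO, as was *Dnmt3a* with a call that was lost over fewer samples. Of the 10 members, 5 rose and 1 fell at an adjusted p below 0.05 (edgeR's quasi-likelihood test over 12450 genes, Benjamini-Hochberg), against 23.9% of all genes tested, 12.3% higher and 11.5% lower. The 5 include *Tet2*, which had at most 2 UMIs in any DMSO sample and passed the filter on low counts through the samples of 5C. The median log2 fold change was 0.61 over the members and 0.025 over all genes.

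*Dnmt1* lay between 272 and 327 CPM (median 301) in the 8 samples of 5C and at 166, 261, 159, 154 and 126 CPM in DMSO replicates 1 to 5. No DMSO sample reached the lowest 5C sample, and the log2 fold change was 0.80 (SE 0.14, adjusted p = 0.00039, edgeR). *Uhrf1* lay between 160 and 279 CPM (median 234) under 5C and at 153, 244, 108, 63.7 and 88.2 CPM under DMSO, with a log2 fold change of 0.88 (SE 0.23, adjusted p = 0.0091). Here the groups overlapped, since DMSO replicate 2 was above 5 of the 8 samples of 5C. Beside the maintenance pair, a list of 12 genes of S phase summed to 1670 to 2226 CPM under 5C and 958 to 1985 CPM under DMSO, and a list of 8 genes of G2 and mitosis to 1648 to 2714 and 1111 to 1998 CPM. The part of cell cycle in the change of *Dnmt1* and *Uhrf1* was not tested.

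Among the genes for new methylation, *Dnmt3a* (chromosome 12, 3806007 to 3914443, plus strand) lay between 138 and 232 CPM (median 189) under 5C and at 88.8, 131, 94.4, 143 and 150 CPM under DMSO. The log2 fold change was 0.59 (SE 0.16, adjusted p = 0.011, edgeR), although the lowest 5C sample was below the 2 highest DMSO samples. Over replicates 1 to 5 of each group the log2 fold change was 0.57 with the replicate number as a block (adjusted p = 0.071) and 0.55 without it (adjusted p = 0.073, edgeR). *Dnmt3b* (chromosome 2, 153649450 to 153687730, plus strand) lay between 41.2 and 109 CPM under 5C and between 61.5 and 98.6 CPM under DMSO, and its log2 fold change of -0.35 (95% interval -0.81 to 0.11) did not pass the test (adjusted p = 0.30). *Dnmt3l* was at 232, 163, 10.6, 21.2 and 31.3 CPM in the DMSO replicates and between 11.3 and 55.8 CPM under 5C, and its fitted log2 fold change of -1.73 (SE 0.55, adjusted p = 0.026) rested on DMSO replicates 1 and 2. These sums held only 8 and 13 Dazl-high cells, and in each of them 1 cell gave 82.6% and 84.4% of the *Dnmt3l* UMIs. Without that cell the plain CPM dropped from 231 to 59.0 and from 157.5 to 28.3. Without replicate 1 the adjusted p was 0.16, and without replicate 2 it was 0.10. With sums of at least 20 cells, which leave out both, the log2 fold change was 0.23 (adjusted p = 0.71, edgeR).

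Of the erasers, *Tet2* (chromosome 3, 133463679 to 133545139, minus strand) was close to the limit of detection in Dazl-high cells of DMSO, with 1, 1, 2, 0 and 1 UMIs in the 5 samples. The 8 samples of 5C held 2 to 48 UMIs. Over the pooled UMIs these were 185 of 45794482 under 5C and 5 of 17082864 under DMSO, a ratio of 13.8 with a 95% counting interval of 5.81 to 43.0 that covers counting error only. The adjusted p was 0.026 (edgeR) and went to 0.088, 0.082 and 0.081 when DMSO replicates 3, 4 or 5 were left out and to 0.077 with a split at 800 CPM of *Dazl*. The fitted log2 fold change was 3.28 (SE 1.04), which at such counts depends on the prior count. *Tet1* (chromosome 10, 62804570 to 62908996, minus strand) lay between 4.32 and 28.7 CPM in 7 samples of 5C and at 121.5 CPM in 5C replicate 1, where 18 of 67 Dazl-high cells had at least 100 CPM. It did not pass the test (log2 fold change 0.63, adjusted p = 0.57). *Tet3* (chromosome 6, 83362373 to 83459084, minus strand) lay between 22 and 37.7 CPM under 5C and at 0, 1.33, 21.1, 25.4 and 33.2 CPM under DMSO. The low values were those of the same replicates of 8 and 13 cells, and the log2 fold change of 0.59 did not pass the test (adjusted p = 0.33, edgeR).

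Of the imprint guards, only *Trim28* passed the test. *Trim28* (chromosome 7, 12999114 to 13031035, plus strand) lay between 384.5 and 643.5 CPM (median 485) under 5C and at 321, 308, 235, 240 and 247 CPM under DMSO, without overlap, for a log2 fold change of 0.84 (SE 0.13, adjusted p = 0.00014, edgeR). *Zfp57* lay between 11.1 and 26.7 CPM under 5C and at 32.3, 48.0, 8.56, 11.9 and 15.3 CPM under DMSO, with a log2 fold change of -0.11 (95% interval -0.84 to 0.63, adjusted p = 0.86). Its 2 highest DMSO values were those of replicates 1 and 2, and without these sums, at a minimum of 20 cells, the direction turned to 0.699 (adjusted p = 0.11, edgeR).

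**Figure D1:**
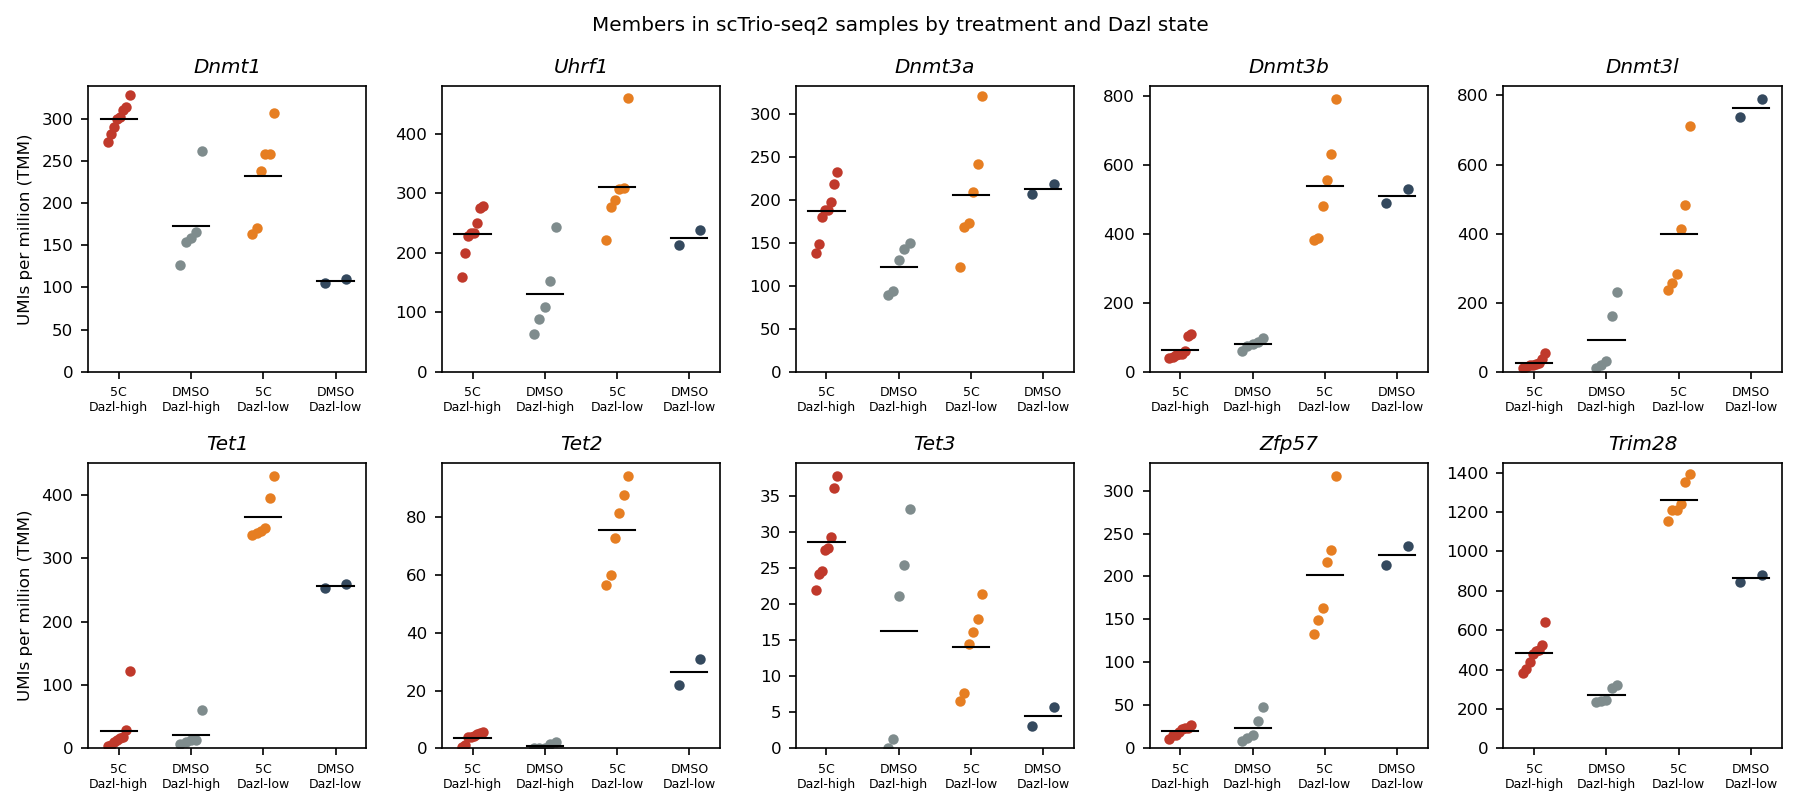
CPM after TMM scaling (vertical axes, linear) of each member in the scTrio-seq2 sums, 1 point per sample (8, 5, 6 and 2 samples from left to right in each panel), with points spread sideways by rank and a bar at the mean. *Dnmt1* and *Trim28* of Dazl-high cells do not overlap between 5C and DMSO, and *Tet1*, *Tet2*, *Zfp57*, *Dnmt3b* and *Trim28* of Dazl-low cells lie above the Dazl-high cells of the same treatment.

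In cells that had lost the germ cell state, 4 members rose and 1 fell under 5C against DMSO, beside 16.8% of 11643 genes, 6.87% higher and 9.90% lower. The comparison had 6 samples of 5C and only DMSO replicates 1 and 2, of 80 and 77 cells, whose library names share a stem. *Dnmt1* lay between 163 and 306.5 CPM (median 248) under 5C and at 105 and 110 CPM under DMSO, a log2 fold change of 1.09 (SE 0.24, adjusted p = 0.0063, edgeR). *Trim28* lay between 1152 and 1393 CPM under 5C and at 880 and 846 CPM under DMSO, with a log2 fold change of 0.52 (SE 0.11, adjusted p = 0.0055). For both genes all 6 samples of 5C were above both samples of DMSO. Both calls were lost with a split at 800 CPM of *Dazl*, which adds DMSO sums of 10 and 6 cells. The log2 fold changes there were 0.95 for *Dnmt1* (adjusted p = 0.18) and 0.87 for *Trim28* (adjusted p = 0.43, edgeR). The call of *Trim28* was also lost when only cells below 100 CPM of *Dazl* counted as Dazl-low (log2 fold change 0.52, adjusted p = 0.096, edgeR).

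*Tet2* lay between 56.5 and 94.3 CPM in the Dazl-low cells of 5C and at 21.9 and 31.1 CPM in those of DMSO, a log2 fold change of 1.48 (SE 0.32, adjusted p = 0.0058, edgeR). The call on *Tet2* was lost with the split at 800 CPM, at a log2 fold change of 1.95 (adjusted p = 0.37, edgeR). *Tet1* lay between 337 and 430 CPM against 253 and 259 CPM, a log2 fold change of 0.49 (SE 0.16, adjusted p = 0.048). Neither gene overlapped between the groups, but the call on *Tet1* was the closest to the threshold. It was lost with DESeq2's size factors (adjusted p = 0.061), with no filter on low counts (0.059), with splits at 200 and 800 CPM of *Dazl* (0.069 and 0.67) and without 5C replicate 1, 5, 7 or 8 (0.051 to 0.073, edgeR). With only cells below 100 CPM of *Dazl* as Dazl-low, its log2 fold change was 0.26 (adjusted p = 0.63, edgeR). *Dnmt3l* went the other way, with 237 to 712 CPM (median 348) under 5C and 789 and 737 CPM under DMSO, and fell by 0.97 on the log2 scale (SE 0.303, adjusted p = 0.039). This call, too, was lost under DESeq2's Wald test (adjusted p = 0.13) and without 5C replicate 1, 6, 7 or 8 (adjusted p between 0.058 and 0.067, edgeR). With the split at 800 CPM of *Dazl* the log2 fold change of *Dnmt3l* was -0.45 (adjusted p = 0.86, edgeR). *Uhrf1* (log2 fold change 0.43, 95% interval -0.018 to 0.87), *Dnmt3a* (-0.070, -0.60 to 0.46), *Dnmt3b* (0.047, -0.40 to 0.50), *Tet3* (1.6, 0.21 to 2.99, adjusted p = 0.14) and *Zfp57* (-0.18, -0.71 to 0.35) did not pass the test. Leaving out DMSO replicate 1 or 2 brought the genes called from 1953 to 628 or 575 and the members called to 0 or 1 (*Tet2*), respectively.

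Within 5C the change of state itself could be read in the 6 samples that held both kinds of cells, with the sample as a block. The state was set on *Dazl* alone, which is not a member, but the 2 kinds of cells differ in much of the transcriptome, and 45.6% of 10856 genes were called (21.6% higher and 24.0% lower in Dazl-low cells). Among the members 7 were higher and 2 lower in Dazl-low cells. *Dnmt3l*, *Tet1* and *Tet2* differed most, with log2 fold changes of 3.78 (SE 0.301), 4.03 (SE 0.39) and 4.13 (SE 0.34), followed by *Zfp57* at 3.30 (SE 0.18), *Dnmt3b* at 2.93 (SE 0.16) and *Trim28* at 1.26 (SE 0.077), each with an adjusted p of at most 2.2e-07 (edgeR). *Zfp57*, for instance, lay between 133 and 317 CPM in the Dazl-low sums, above the 11.1 to 26.7 CPM of the Dazl-high sums. *Tet3* ran against the other *Tet* genes, at 6.57 to 21.4 CPM in Dazl-low cells, and fell by 1.22 on the log2 scale (SE 0.33, adjusted p = 0.0052). *Dnmt1* fell by 0.44 (SE 0.13, adjusted p = 0.00996) and *Uhrf1* rose by 0.37 (SE 0.12, adjusted p = 0.016). *Dnmt3a* had a log2 fold change of 0.0077 (95% interval -0.28 to 0.298). The pair that maintains methylation thus moved in opposite directions. The S phase list summed to 2362 to 3117 CPM in the Dazl-low sums of 5C and to 1670 to 2226 CPM in the Dazl-high sums, without overlap. The part of cell cycle in the changes of this pair between states was not tested. The call on *Tet3* was lost with a split at 800 CPM of *Dazl* (log2 fold change -0.77, adjusted p = 0.13) and when only cells below 100 CPM counted as Dazl-low (-1.36, adjusted p = 0.16, edgeR). The small changes of *Dnmt1* and *Uhrf1* lost their call under some alternatives, among them a split at 800 CPM of *Dazl* (adjusted p = 0.058 for *Dnmt1* and 0.41 for *Uhrf1*), and the sign of *Uhrf1* turned (-0.048) when only cells below 100 CPM of *Dazl* counted as Dazl-low.

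Whether this change of state differed between the treatments was tested by the interaction over the 6 samples of 5C and 2 of DMSO with both states. It called 3.35% of 13419 genes, 1.51% higher and 1.84% lower, and 1 member, *Dnmt3l*, with a difference of 1.83 in log2 fold change (SE 0.47, adjusted p = 0.029, edgeR), beside a median of -0.22 over all genes. The value rests on the Dazl-high sums of DMSO replicates 1 and 2, in which 1 cell gave most of the UMIs, and it lost its call without either of them (adjusted p = 0.204 and 0.11) and in DESeq2 (0.15). No other member passed, among them *Dnmt3a* at -0.94 (adjusted p = 0.097), *Zfp57* at 0.84 (0.23) and *Tet3* at -3.54 (0.14), whose DMSO Dazl-high sums held 0 and 1 UMIs.

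The other genes of the pathway were read from a list of 34 genes: 7 for excision repair, 6 readers of methylation, 4 partners of maintenance, 10 heterochromatin partners of TRIM28 and 7 others. In Dazl-high cells 6 of the 31 tested rose under 5C and 2 fell, beside 12.3% and 11.5% of all genes, at a median log2 fold change of 0.26. *Cbx5*, which encodes heterochromatin protein HP1 alpha, rose by 1.0 (SE 0.16, adjusted p = 0.00016, edgeR), and *Uhrf2*, a relative of *Uhrf1*, by 0.98 (SE 0.17, adjusted p = 0.00044). *Kdm1b*, a histone H3 lysine 4 demethylase needed for imprints in oocytes, fell by 0.84 (SE 0.26, adjusted p = 0.024). In Dazl-low cells 7 of 31 rose and 2 fell (6.87% and 9.90% of all genes), with *Mbd2* at 1.69, *Atf7ip* at 1.47 and *Setdb1*, the H3 lysine 9 methyltransferase recruited by TRIM28, at 1.24. Between the states of 5C 11 of 31 were higher and 7 lower (21.6% and 24.0% of all genes), led by *Prdm14* (3.68), *Dppa3* (2.39) and *Gadd45a* (1.86), of which the first represses the de novo methyltransferases in naive pluripotent cells and the next hinders UHRF1. The interaction called *Ehmt2* (1.11) and *Cbx1* (-0.71) of 32, beside 1.51% of all genes higher and 1.84% lower.

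The lines were kept in 2iL, a medium known to lower DNA methylation in mouse embryonic stem cells. Each line was 1 library, of 48 cells for gPSC p1, 32 for gPSC p15 and 45 for mES, so the intervals cover counting error only and no difference between lines has a replicate check. No test was made, and levels are plain CPM of the summed UMIs. Of the 10 members, 2 were over 2-fold higher and 1 over 2-fold lower in gPSC p15 than in gPSC p1, where 21.7% and 4.75% of 9263 genes with at least 10 CPM in at least 1 line of the pair passed the same fold. Between mES and gPSC p1 these were 0 and 1 of the 9 members with at least 10 CPM (10.1% and 6.96% of genes), and between gPSC p15 and mES 2 and 0 (20.9% and 7.52%). In both comparisons of gPSC p15, 1 of the 2 higher members is *Tet3*. It passed 10 CPM only through gPSC p15, being at 3.71 CPM in gPSC p1 and 8.31 CPM in mES.

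The cofactor *Dnmt3l* had the largest ratio between lines, with a counting interval that overlaps that of *Tet3* below, and went from 199 CPM (95% Poisson interval 192 to 207) in gPSC p1 to 41.9 CPM (38.6 to 45.3) in mES and 22.1 CPM (19.4 to 25) in gPSC p15, a ratio of p15 to p1 of 0.111 (0.0965 to 0.126). In cells thinned to 50000 UMIs, *Dnmt3l* was found in 84.8% of the gPSC p1 cells, 30.2% of the mES cells and 29% of the gPSC p15 cells. The shares before thinning were 48 of 48, 25 of 45 and 27 of 32 cells. *Dnmt3b* followed the same order between the passages at a smaller size, at 165 CPM in gPSC p1, 106 CPM in gPSC p15 and 110 CPM in mES. *Dnmt3a* was low in all, at 50.7, 46.7 and 65.0 CPM. The range of the 8 STRT-seq libraries of RPG3, a cluster of pluripotent cells that arose in SSC medium, was 306 to 537 CPM for *Dnmt3b*, 179 to 451 CPM for *Dnmt3a* and 362 to 504 CPM for *Dnmt3l*. Each line was below every RPG3 library for all 3 genes of new methylation. This does not hold for all pluripotent cells of SSC medium. The 47 summed cells of RPG2, another such cluster, had 71.8 CPM of *Dnmt3a*, 206.5 CPM of *Dnmt3b* and 120 CPM of *Dnmt3l*, and gPSC p1 was above that level of *Dnmt3l*. After TMM scaling, the 3 RPG2 libraries ranged from 86.4 to 353.5 CPM for *Dnmt3b* and from 2.72 to 218 CPM for *Dnmt3l*.

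The maintenance pair was not below the RPG3 libraries in any line, and its upper ends there came from 1 library of 7 cells, of day 12. *Dnmt1* was at 155, 218 and 172 CPM in gPSC p1, gPSC p15 and mES, inside the range of the RPG3 libraries, and *Uhrf1* at 290, 360 and 324 CPM, inside it for gPSC p1 and above it for the other 2 lines. Without the library of 7 cells the RPG3 ranges ended at 183 CPM for *Dnmt1* and 213 CPM for *Uhrf1*, which put *Dnmt1* of gPSC p15 and *Uhrf1* of all 3 lines above them. *Tet1* was at 358, 470 and 332 CPM. *Tet2* was at 65.8 CPM in gPSC p1, 158 CPM in gPSC p15 and 122 CPM in mES, 2.4-fold (2.22 to 2.6) higher in p15 than in p1 and, for p15 and mES, above every RPG3 library. *Tet3* rested on 52, 285 and 123 UMIs, which are 3.71, 26.3 and 8.31 CPM and a ratio of p15 to p1 of 7.10 (5.27 to 9.74).

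The imprint guards differed between the lines in different ways. *Zfp57* was highest in gPSC p1 at 333 CPM (323 to 342), above every RPG3 library, followed by mES at 271 CPM and gPSC p15 at 199 CPM, and it was found in all thinned cells of the 3 lines. *Trim28* was highest in gPSC p15 at 583 CPM (569 to 598), then gPSC p1 at 399.5 CPM and mES at 241 CPM, a ratio of p15 to mES of 2.42, and only mES was below the RPG3 libraries. Counted over all genes, 12.9% were above and 17.8% below every RPG3 library in gPSC p1, 22.2% and 18.4% in gPSC p15, and 17.8% and 18.2% in mES. Of the 10 members 1 was above and 3 below in gPSC p1, 3 above and 3 below in gPSC p15, and 2 above and 4 below in mES. Without the RPG3 library of 7 cells the members above were 2, 5 and 3, with *Uhrf1* added in gPSC p1, *Dnmt1* and *Tet3* in gPSC p15 and *Zfp57* in mES, and those below were 3, 3 and 4 as before. Over all genes this narrower range left 16.4%, 30% and 22.4% above and 24.5%, 25.6% and 24.1% below. The lines and RPG3 differ in medium and in time as well as in state, and these cannot be told apart.

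**Figure D2:**
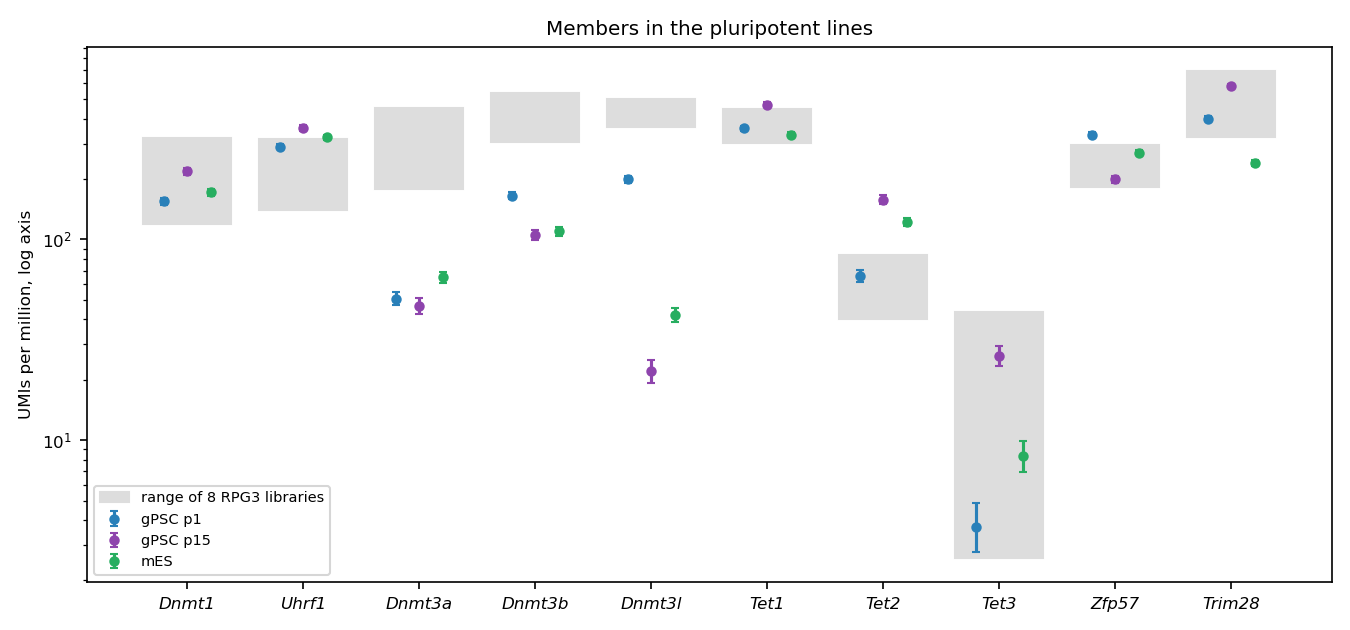
Plain CPM on a log axis of each member in the 3 lines (points, 95% Poisson intervals as bars, 1 library each) beside the range over the 8 RPG3 libraries (grey boxes). The 3 lines lie under the grey boxes of *Dnmt3a*, *Dnmt3b* and *Dnmt3l*, and the spread between lines is widest for *Dnmt3l* and *Tet3*.

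Along the untreated course the cells carry the clusters given with the deposited data, of which SSC1 to SSC4 are joined here as SSC1-4 (36 libraries with at least 5 cells), RPG1 to RPG4 are the path to pluripotency (7, 3, 8 and 2 libraries), and fibroblast, early-pluripotent, meiotic and neural classes are the cells that left it (5, 3, 6 and 12 libraries). The clusters were drawn on the same transcriptomes, so levels by class are a description and carry no test. Along the path *Uhrf1* lay at 96.7 to 300 CPM (median 192) in SSC1-4, 195 to 286 CPM in RPG1, 139 to 246 CPM in RPG2, 169.5 to 350 CPM (median 228) in RPG3 and 172 and 172.5 CPM in RPG4. All these ranges overlapped that of SSC1-4. *Dnmt1* did so as well up to RPG3 and was at 144 and 97.1 CPM in the 2 RPG4 libraries, of 8 and 13 cells, below the 172 CPM of the lowest SSC1-4 library.

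*Trim28* was at 112 to 268 CPM (median 151) in SSC1-4 and 143 to 332 CPM in RPG1, and then at 521.5 to 601 CPM in RPG2, 375 to 761 CPM (median 579) in RPG3 and 345 and 361 CPM in RPG4, each above every SSC1-4 library. Within RPG3 it was higher in the 3 libraries of batch B2, at 685 to 761 CPM, than in the 5 of batch B1, at 375 to 599 CPM, and both batches were above SSC1-4. *Zfp57* took another course, with 22.1 to 40.2 CPM in RPG1, 69.3 to 141 CPM in RPG2, 210 to 326.5 CPM (median 252) in RPG3 and 37.5 and 53.6 CPM in RPG4. The RPG4 libraries thus overlapped SSC1-4 for *Zfp57* but not for *Trim28*, along with *Dnmt3b* at 459 and 488 CPM but *Dnmt3l* at 15.8 and 17.2 CPM and *Tet2* at 6.34 and 10.8 CPM. Against SSC1-4, 4 members did not overlap upwards in RPG2 (5.10% of all genes) and 1 downwards, *Tet3* (3.30%), 6 upwards in RPG3 (4.06%) and none downwards (2.03%), 3 upwards in RPG4 (7.54%) and 1 downwards (5.50%). For RPG1 and the 4 classes that left the path no member was apart from SSC1-4 in either direction with the batches pooled. Of all genes, 0.0250% were apart upwards and 0.0100% downwards in RPG1, 0.160% and 0.00% in the fibroblast class, 0.220% and 0.0951% in the early-pluripotent class, 0.0150% and 0.00% in the meiotic class, and 0.00% and 0.00500% in the neural class. All 3 RPG2 libraries were of batch B2, and within batches B1 and B2 alone 7 members were apart upwards in RPG3 (7.71% and 10.1% of all genes) and none downwards (3.98% and 6.60%).

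For RPG1 the batches gave different pictures. In batch B1 (5 libraries) no member was apart from the 29 SSC1-4 libraries (0.120% of all genes higher and 0.0550% lower). In batch B2 (2 libraries, both of day 18) *Dnmt3b*, *Dnmt3l*, *Tet1*, *Tet2*, *Zfp57* and *Trim28* were above all 7 SSC1-4 libraries of that batch and *Tet3* below, 6 members against 5.18% of all genes and 1 against 2.27%. *Trim28* was at 332 and 329 CPM in these 2 RPG1 libraries and at 143 to 238 CPM in the 5 of batch B1, which were of days 20 and 23, so batch and day cannot be told apart here. Of the classes that left the path, only the meiotic and neural ones had members apart within a batch. In the 4 meiotic libraries of batch B1 none was (0.210% of all genes higher and 0.0400% lower). In the 2 meiotic libraries of batch B2 *Dnmt3l* was higher and *Dnmt1* lower (4.03% and 1.66% of all genes), and in its single neural library 2 members were higher and 3 lower (13.3% and 9.54%), against none in the 11 neural libraries of batch B1 (0.00% and 0.00500%). In the RPG2 libraries, against SSC1-4 of batch B2 alone, the same 4 members were higher (8.35%), and *Dnmt3a* was lower beside *Tet3* (6.14%).

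Over the libraries of SSC1-4, whose makeup of clusters changed with the day, *Zfp57* was not even over time. The libraries of days 0 to 18 lay between 0 and 20.3 CPM in both batches, those of days 20 and 23 between 27.3 and 60.4 CPM, and those of day 27 between 15.9 and 26.3 CPM. The later libraries were all of batch B1, and in B1 alone the libraries up to day 18 reached 18.2 CPM. *Dnmt3a* was lower after day 18 than on days 10 to 18 in most libraries of batch B1, with 112 CPM in the library of day 0, 119 to 258 CPM on days 10 to 18 and 87.4 to 134 CPM on days 20 to 27, while *Dnmt3a* of batch B2 stayed between 141 and 189 CPM on days 14 to 18. SSC3 and SSC4 gave 4.63% and 3.67% of the 1146 SSC1-4 cells of days 0 to 18 and 40.7% and 39.0% of the 1044 cells of days 20 and 23. In plain CPM of summed cells, *Zfp57* on days 0 to 18 and on days 20 and 23 was at 11.7 and 26.6 CPM in SSC1, 12.3 and 24.3 CPM in SSC2, 24.5 and 46.5 CPM in SSC3, and 17.4 and 40.3 CPM in SSC4, so it was higher on days 20 and 23 inside each cluster and, in both periods, highest in SSC3. *Dnmt3a* was at 162 and 119 CPM in SSC1, 140 and 88.8 CPM in SSC2, 145 and 107 CPM in SSC3, and 180 and 122 CPM in SSC4, lower on days 20 and 23 inside each cluster. *Tet1* in the same libraries of days 20 and 23 was at 5.03 to 16.7 CPM, no higher than the 21.9 CPM reached by day 12.

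Among the classes that left the path, the neural class had the lowest medians of *Uhrf1* and *Dnmt1*, at 115 and 160 CPM over 12 libraries. *Zfp57* had medians of 16.4 to 23.1 CPM in the 4 classes, with 1 neural library of 5 cells at 64.6 CPM, above the highest SSC1-4 library. Of the 18 clusters, Fibroblast 2 (39 cells) and Neural 3 (61 cells) had *Col1a1*, a fibroblast collagen, at 773 and 298 CPM and *Dazl* at 298.5 and 88.8 CPM, and the share of feeder cells in them was not tested. Fibroblast 2 had *Uhrf1* at 32.1 CPM and *Dnmt1* at 85.4 CPM, each the lowest of the 18 clusters, and *Dnmt3l* at 3 UMIs. Neural 3 had *Tet1* at 96.5 CPM, *Zfp57* at 64.1 CPM and *Trim28* at 314 CPM.

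**Figure D3:**
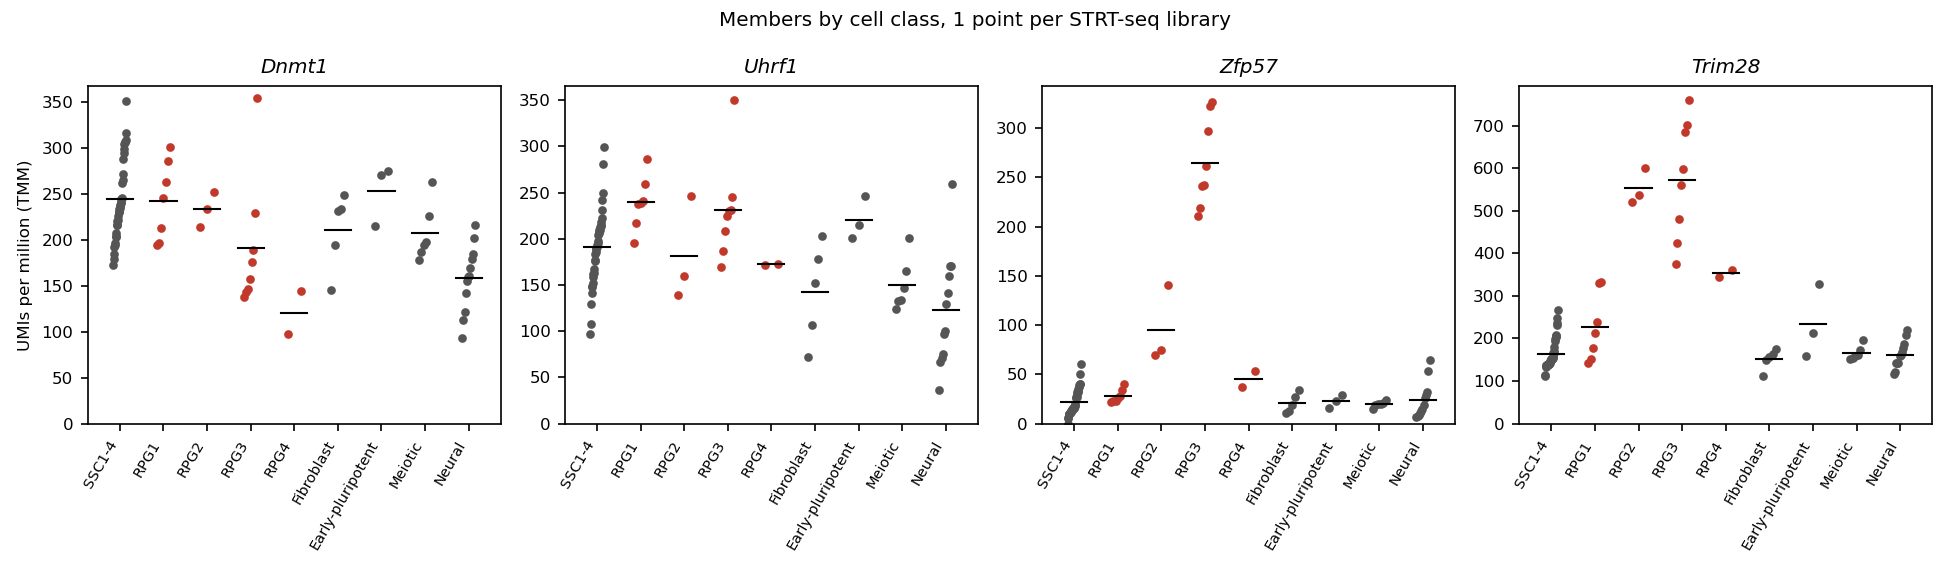
CPM after TMM scaling (linear axes) of *Dnmt1*, *Uhrf1*, *Zfp57* and *Trim28* by class, 1 point per STRT-seq library with at least 5 cells, spread sideways by rank, with a bar at the mean and the RPG classes in red. *Zfp57* peaks in RPG3 while *Trim28* is above SSC1-4 in RPG2, RPG3 and RPG4, and the ranges of *Uhrf1* in SSC1-4 and the RPG classes overlap.

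Per-cell co-expression was read inside each deposited sample, called a library here, so that differences between these samples play no part. Some of them, among them 5C replicate 7, pool cells of more than 1 library name, and differences between such sets can enter. Each cell was first thinned to 50000 UMIs in STRT-seq (4232 of 4464 cells kept) and 30000 UMIs in scTrio-seq2 (992 of 1089 cells). Pearson correlations of the log counts were taken in libraries with at least 20 such cells and are a description. Cells of a library are not independent, and in SSC1-4, where *Dnmt3l* was found in 24.4% of thinned cells and *Tet1* in 18.5%, a weak correlation of these genes says little. Among the 45 pairs of members the mean correlation over libraries passed 0.3 for 3 pairs in RPG3, 4 in the Dazl-low cells of 5C, 2 in those of DMSO, 1 in the fibroblast class (*Dnmt1* and *Uhrf1*, 0.478) and none in SSC1-4, RPG1, the early-pluripotent, meiotic and neural classes or the Dazl-high cells of 5C. In the Dazl-high cells of DMSO none of the 36 pairs with a value did, and RPG2 and RPG4 had no library with enough cells.

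In RPG3 (6 libraries, 239 cells) the 2 enzymes of new methylation went together, with a mean r of 0.57 between *Dnmt3a* and *Dnmt3b* and every library between 0.51 and 0.69, against a mean of 0.063 over 28 SSC1-4 libraries. In the same cells *Dnmt3l* was positively related to *Zfp57* and not to *Dnmt3b*. The mean r was 0.498 (0.10 to 0.79) between *Dnmt3l* and *Zfp57*, -0.24 (-0.49 to 0.046) between *Dnmt3b* and *Dnmt3l*, and -0.44 (-0.64 to -0.13) between *Dnmt3b* and *Zfp57*. All 4 genes were found in at least 93.7% of the thinned RPG3 cells. *Dnmt3a* and *Zfp57* were negatively related in the same way, at -0.41 (-0.54 to -0.18).

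The Dazl-low cells of DMSO, measured by the other assay, showed the same signs in both samples. There *Dnmt3a* and *Dnmt3b* were related at 0.42 and 0.55 in replicates 1 and 2 (78 and 70 cells), *Dnmt3l* and *Zfp57* at 0.61 and 0.504, *Dnmt3b* and *Dnmt3l* at -0.37 and -0.39, and *Dnmt3b* and *Zfp57* at -0.39 and -0.28. In the Dazl-low cells of 5C the sign was the opposite for *Dnmt3b* and *Dnmt3l*, which were positively related in each of the 3 samples with enough cells, at 0.75, 0.28 and 0.53 in replicates 1, 5 and 7 (25, 51 and 36 cells). For this pair no value of 5C fell in the range of DMSO. *Dnmt3b* and *Zfp57* were related at 0.705, -0.018 and 0.055 in these samples, *Dnmt3l* and *Zfp57* at 0.693, 0.0989 and 0.0325, and *Dnmt3a* and *Dnmt3b* at 0.32, 0.42 and 0.30. No test was made, and an exact permutation test of 3 samples against 2 could not reach a p below 0.05. The cells under 5C were also those with the lower sum of the pluripotency list and the earlier days.

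In the lines 3 pairs of members passed 0.3 in gPSC p1, 2 in gPSC p15 and 3 in mES, with the highest values for *Tet1* and *Zfp57* (0.375), *Dnmt3b* and *Tet2* (0.459) and *Tet2* and *Zfp57* (0.501). *Dnmt3a* and *Dnmt3b*, the pair with the highest mean in RPG3, were related at 0.319 in gPSC p1, -0.0065 in gPSC p15 and 0.253 in mES, each below every RPG3 library. *Dnmt3a* and *Zfp57* were at -0.36, 0.126 and -0.21, and *Dnmt3b* and *Zfp57* at 4.7e-05, -0.27 and 0.091. *Dnmt3b* and *Dnmt3l* were related at 0.088 in gPSC p1, 0.450 in gPSC p15 and 0.196 in mES (46, 31 and 43 cells), and *Dnmt3l* and *Zfp57* at -0.27, -0.36 and 0.12, of which the value of mES lay inside the range of the RPG3 libraries, where *Dnmt3l* was found in only 29% of the gPSC p15 cells and 30.2% of the mES cells. *Zfp57* and *Trim28* had correlations closer to 0, with a mean r of 0.094 (-0.14 to 0.27) in RPG3, -0.064 in SSC1-4, and 0.12, -0.058 and 0.081 in the 3 lines.

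*Uhrf1* had the highest mean correlation with S phase of the 10 members in SSC1-4, RPG1, RPG3 and each line. Its correlation with the summed list of 12 genes of S phase was above 0 in each of the 28 SSC1-4 libraries (mean 0.515, 0.285 to 0.71), each of 7 RPG1 libraries (mean 0.497) and each of 6 RPG3 libraries (mean 0.39, 0.235 to 0.53). It was 0.596, 0.305 and 0.45 in gPSC p1, gPSC p15 and mES. *Dnmt1* was less so in the same cells, at a mean of 0.25 in SSC1-4 and 0.016 in RPG3. The pair *Dnmt1* and *Uhrf1* itself was related at a mean of 0.21 in SSC1-4, above 0 in 27 of 28 libraries, and 0.13 in RPG3.

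**Figure D4:**
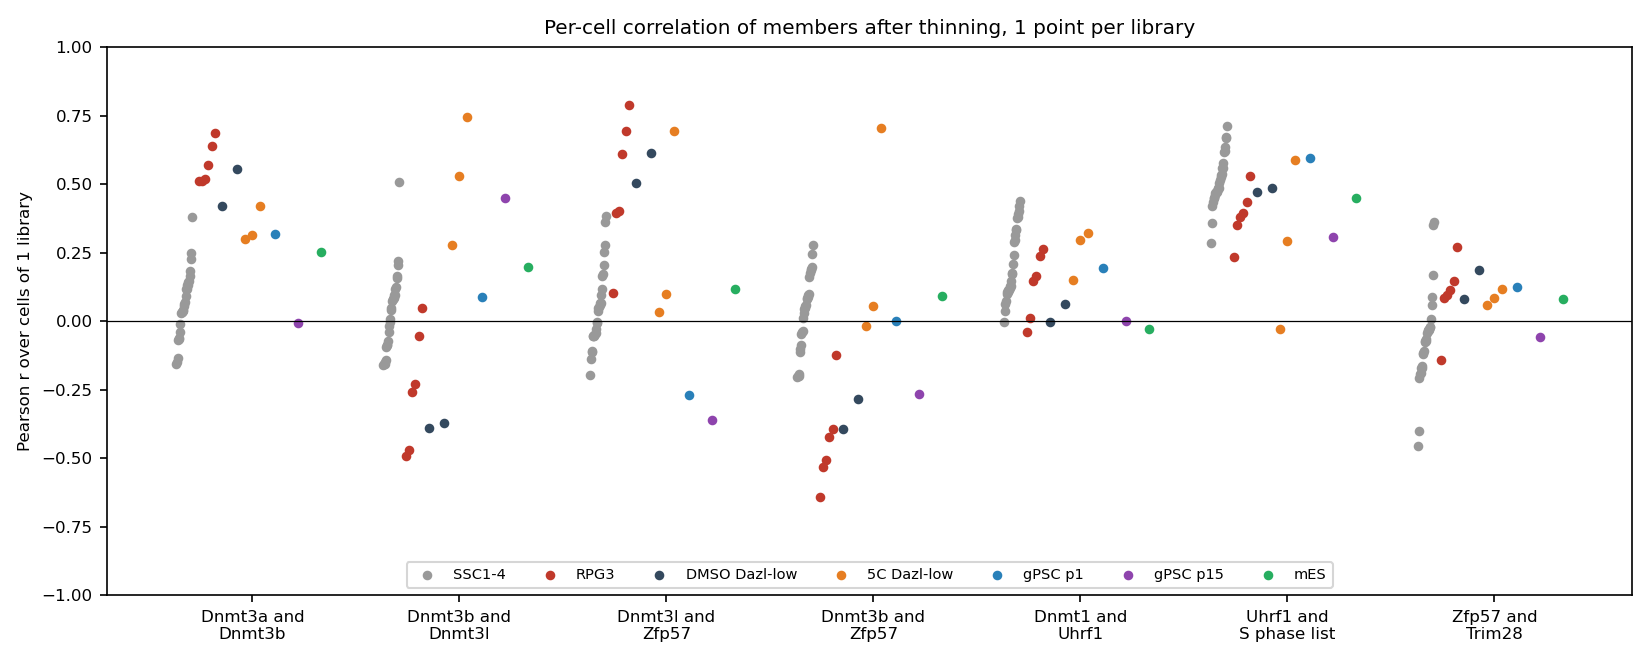
Pearson r of log thinned counts over the cells of 1 library (vertical axis) for 7 pairs, 1 point per library with at least 20 cells, coloured by class or line. *Dnmt3b* and *Dnmt3l* lie below 0 in both DMSO Dazl-low samples and above 0 in the 3 samples of 5C Dazl-low cells, and *Uhrf1* and the S phase list lie above 0 in all SSC1-4, RPG3 and line libraries.

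Across the 18 clusters and 3 lines, the genes whose level was most like that of a member were found by the correlation of log2(CPM + 1) over these 21 points among 10006 genes. For *Uhrf1* they were *Gins1* (r = 0.898), *Cenph* (0.887) and *Mcm3* (0.886). For *Zfp57* they were *Fntb* (0.95), *Slc25a13* (0.930) and *Ppcs* (0.929), and for *Trim28* they were *Kpnb1* (0.954), *Cdv3* (0.952) and *Ankrd13a* (0.952). Among the members, *Zfp57* was closest to *Tet1* (r = 0.889) and *Tet2* (0.861) and opposed to *Tet3* (-0.756), and *Trim28* was closest to *Tet1* (0.834). Most of these points share libraries, and the order is a description of these clusters and lines.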

How the data were processed

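Single-cell UMI count tables were used, which the authors deposited as counts per gene and cell after removal of low-quality cells: reads were aligned to mm10, and per the labels' processing notes STAR 2.7.2b and featureCounts 2.0.0 were used. The percent of mitochondrial UMIs per cell was deposited by the authors with the STRT-seq table. Doublets were not called here: cells were picked by hand. Sums of UMIs per sample and Dazl state were fitted with edgeR 4.0.16 (quasi-likelihood, TMM, low counts filtered by filterByExpr) in R 4.3.3, with Benjamini-Hochberg adjustment over all genes and a threshold of 0.05; each fit was tested on simulated data. DESeq2 1.42.0, other splits, cell minimums, no filter and leaving out each sample were alternatives. Replicate numbers of 5C and DMSO did not pair the samples (see the closing section). All 10 members are named; of the 34 other pathway genes, the 3 with the largest fold change among those called in each test. The list for the likeness was the 3 highest correlations for *Uhrf1*, *Zfp57* and *Trim28*. Members and lists were chosen with earlier results of these data known. Sequences are from RefSeq; coordinates of genes are on GRCm38. Methylomes were not analysed here. Python 3.11.15 with numpy 2.4.6, pandas 2.3.3 and matplotlib 3.10.9 was used for sums, thinning (seed 20240) and figures.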

Additional observations from a re-analysis of the deposited data

Results flagged for a closer look

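Among 70 groups of 4 to 10 samples tested for a sample apart from the others by Dixon's criterion, 8 had one, and chance flags about 1 in 20 groups. In the scTrio-seq2 sums, *Uhrf1* in Dazl-low cells of 5C replicate 3 (7 cells) was at 460.9 CPM against 221.0 to 309.7 CPM in the other 5C samples. *Tet1* in Dazl-high cells was at 121.5 CPM in 5C replicate 1 against 4.32 to 28.7 CPM in the others, and at 60.6 CPM in DMSO replicate 1 against 7.52 to 13.3 CPM, where 1 cell gave 86.7% of its UMIs. In RPG3 the library of day 12 replicate 2, of 7 cells, was apart for 3 members: *Dnmt1* at 354.6 CPM (others 137.9 to 229.6 CPM), *Uhrf1* at 349.7 CPM (169.5 to 245.0 CPM) and *Tet3* at 47.9 CPM (3.11 to 19.5 CPM). In the meiotic class *Tet1* was at 14.1 CPM in day 16 replicate 4 (others 1.47 to 6.13 CPM) and *Tet2* at 12.9 CPM in day 16 replicate 5 (others 0.0934 to 1.09 CPM). The change of *Dnmt3l* from Dazl-high to Dazl-low cells differed between 5C and DMSO by 1.83 on the log2 scale in the test of the interaction, with the dependence on single cells and samples given in the report. What sets these samples apart was not tested.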

How the results depend on the processing

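The design limits the treatment comparison: days are not shared, the Dazl-low cells of DMSO are 2 samples, and the Dazl-high sums of DMSO replicates 1 and 2 hold 8 and 13 cells. The count of members apart in RPG3 was 6 or 7 and that of members over 2-fold apart between gPSC p15 and p1 was 3 under every alternative run on them. The mean correlations that were rerun kept their sign without thinning, with deeper thinning and as Spearman's rho, from -0.267 to -0.323 for *Dnmt3b* and *Dnmt3l* in Dazl-low cells of DMSO and from 0.374 to 0.514 in those of 5C. Not all means named in the text were rerun. Left out were, among others, *Dnmt3a* and *Zfp57* in RPG3, *Uhrf1* and S phase in RPG1 and RPG3, and *Dnmt1* and *Uhrf1* in RPG3 and the fibroblast class. The cause of the changes below was not tested.

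Replicate numbers did not pair 5C and DMSO samples (correlations of same-numbered deviations between -0.093 and 0.078), and the fit of Dazl-high cells with the replicate block over the 5 shared numbers called 1213 genes and 3 members, against 1826 genes and 3 members for the same samples without the block; *Dnmt3a* and *Dnmt3l* were not called in either, and *Tet2* was not tested in either because of its low counts. No paired analysis was possible in Dazl-low cells because the groups share 1 number. In the state comparison, leaving out the block changed the call of *Uhrf1* only among the members (adjusted p = 0.068, edgeR).

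In Dazl-low cells a split at 800 CPM of *Dazl* (8 and 4 samples) called 4 genes and 0 members (1365 genes and 2 members at an unadjusted p below 0.05, edgeR), and Dazl-low cells below 100 CPM, an alternative chosen after seeing the data like sums of at least 20 cells, the same samples without the block, RPG3 without its library of fewest cells, the classes within batches and the SSC clusters by period, called 699 genes and 3 members. The state comparison called 2898 genes with a split at 800 CPM and 2266 below 100 CPM. The interaction called 681 genes and 0 members in DESeq2 (5 members at an unadjusted p below 0.05), 731 and 2 without a filter, 0 and 0 with a split at 800 CPM (708 genes and 1 member at an unadjusted p below 0.05, edgeR), 285 genes with sums of at least 10 cells and 219 below 100 CPM. Leaving out 1 sample at a time gave 2377 to 3269 genes and 5 to 6 members in Dazl-high cells, 575 to 2295 and 0 to 5 in Dazl-low cells, 4392 to 4922 and 8 to 9 between states, and 103 to 463 and 0 to 2 for the interaction.

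Signs turned, in log2 fold change, in Dazl-high cells for *Dnmt3b* (0.054, split at 200 CPM), *Dnmt3l* (0.23, at least 20 cells), *Tet1* (-0.46 without 5C replicate 1, and -0.46 to 1.31 with 1 sample left out) and *Zfp57* (0.66 split at 800 CPM, 0.045 at least 10 cells, 0.699 at least 20 cells, 0.045 and 0.36 without DMSO replicate 1 or 2, from -0.36 with 1 sample left out). In Dazl-low cells they turned for *Dnmt3a* (0.0097 at least 10 cells, 0.24 below 100 CPM, -0.24 to 0.039 with 1 sample left out, the highest without 5C replicate 6), *Dnmt3b* (-0.020 split at 200 CPM, -0.022 at least 10 cells, -0.0036 below 100 CPM, -0.0017, -0.092 and -0.013 without 5C replicate 1 or 3 or DMSO replicate 2, up to 0.13 with 1 sample left out) and *Zfp57* (0.26, split at 800 CPM). Between states they turned for *Uhrf1* (-0.048, below 100 CPM) and *Dnmt3a* (-0.11 split at 800 CPM, -0.104 and -0.062 without replicate 1 or 5, up to 0.16 with 1 sample left out), and in the interaction for *Uhrf1* (-0.195 below 100 CPM, -0.23 to 0.605 with 1 sample left out), *Tet1* (-0.79 at least 10 cells, -0.197 to 2.02 with 1 sample left out), *Tet2* (-0.64 at least 10 cells, -0.18 and -0.33 without 5C replicate 3 or DMSO replicate 1, up to 0.76 with 1 sample left out) and *Trim28* (0.21, split at 800 CPM).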
